A study of Mus musculus with 9 samples.

Results

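The insulin-like growth factor (IGF) genes described here were taken from the deposited gene table by their symbols: the ligand gene Igf1, the receptor gene Igf1r and the binding protein genes Igfbp2, Igfbp3, Igfbp4, Igfbp5, Igfbp6 and Igfbp7. All 8 symbols were found among the 27207 genes of the table, and all 8 were among the 19374 genes with enough counts to be tested. RNA was sequenced from whole mouse lungs at E18.5, shortly before birth, in 3 groups of 3 libraries. Strong CKO lungs carried Tbx4-rtTA and Tet-O-Cre together with Dnmt1-D/D, were hypoplastic and had widespread bleeding into the parenchyma. Weak CKO lungs carried the same genotype and were hypoplastic without haemorrhage. Wild type lungs were the controls. CKO stands for conditional knockout, and Tbx4 is a gene of the lung mesenchyme, the connective tissue compartment, so the driver is not meant to act in the whole lung. Nothing in the labels says whether the lungs came from separate litters, so the p-values here cover variation among 9 samples that may be related. Libraries keep the names in their titles, and values per library are always given in the order MUT_S_265_5, MUT_S_268_4 and MUT_S_860_3 for strong CKO, MUT_W_265_2, MUT_W_268_3 and MUT_W_549_3 for weak CKO, and WT_265_1, WT_268_1 and WT_549_2 for wild type.

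IGF1 is a secreted growth factor that signals through a tyrosine kinase receptor, the product of Igf1r, and mice without Igf1r die at birth with breathing failure. IGF binding proteins hold IGF1 and IGF2 in the extracellular space, where they can carry the factors, keep them from the receptor or release them after proteases cut the binding protein. IGFBP7 binds IGFs only weakly and is a secreted protein of blood vessel walls and connective tissue.

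Library totals ran from 25607595 to 33156732 counts. The targeted gene Dnmt1, the maintenance DNA methyltransferase, was listed at 2.504 to 3.18 RPKM (reads scaled to gene length and library size) in strong CKO, 2.39 to 3.26 in weak CKO and 3.20 to 4.89 in wild type. Its fall of 0.53 ± 0.17 (SE) on the log2 scale was called in strong CKO, where the adjusted p was 0.0433. For weak CKO the difference of −0.51 ± 0.17 had an adjusted p of 0.0727 and was not called. Both values lie near the threshold, and the strong CKO call held under 8 of 17 alternative settings. Reads were pooled over all cells and exons, so how many cells lost Dnmt1 cannot be read from it. The 12 lung mesenchyme markers summed to 659 to 708 RPKM in strong CKO and 675 to 683 in weak CKO. In wild type they summed to 632 to 729 RPKM. Single markers moved in both directions, with 3 called higher and 7 lower in strong CKO and 3 higher and 5 lower in weak CKO. Of all genes tested, 14.6% were called higher and 11% lower in strong CKO, and 9.09% higher and 5.38% lower in weak CKO. The 6 hepatocyte markers summed to below 1 RPKM in every library.

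Dnmt1 acts at CG dinucleotides, so the 250 bases upstream of the RefSeq start site are shown for 3 of the 4 members called in both CKO groups, with every CG in capitals. DNA methylation itself was not measured in these files. The Igf1r window (GRCm38.p6, chr7:67952007-67952256, plus strand) held 42 CG, the Igfbp7 window (chr5:77408046-77408295, minus strand) held 26, and the Igfbp5 window, cut back to the 231 bases before its first exon (chr1:72874885-72875115, minus strand), held 10.
Igf1r: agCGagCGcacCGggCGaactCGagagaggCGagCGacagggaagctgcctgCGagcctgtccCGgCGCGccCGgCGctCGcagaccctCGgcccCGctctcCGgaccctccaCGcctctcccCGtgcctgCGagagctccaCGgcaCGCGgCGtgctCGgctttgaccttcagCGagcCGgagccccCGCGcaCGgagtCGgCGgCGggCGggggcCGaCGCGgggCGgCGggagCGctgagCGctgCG
Igfbp7: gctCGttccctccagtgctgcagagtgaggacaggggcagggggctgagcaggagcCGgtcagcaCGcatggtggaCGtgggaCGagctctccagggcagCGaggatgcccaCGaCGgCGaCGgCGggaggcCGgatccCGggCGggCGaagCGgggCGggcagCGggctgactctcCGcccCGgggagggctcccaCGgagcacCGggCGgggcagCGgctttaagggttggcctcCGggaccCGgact
Igfbp5: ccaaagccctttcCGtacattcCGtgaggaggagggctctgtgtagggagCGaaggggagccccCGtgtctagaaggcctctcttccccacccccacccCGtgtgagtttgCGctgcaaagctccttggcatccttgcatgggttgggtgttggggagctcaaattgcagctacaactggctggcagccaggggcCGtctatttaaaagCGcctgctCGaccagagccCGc
Across 32851 such windows the median was 6 CG and 92.1% held at least 1. As many or more CG than in the Igf1r window were found in 0.9% of windows, against 9.6% for Igfbp7 and 37.8% for Igfbp5. The Igf1 window held 5 CG, a number reached by 55.6% of windows, and is not printed because it lies in an annotated exon. Of the members not called in both CKO groups, the windows of Igfbp3, Igfbp4 and Igfbp6 held 32, 22 and 7 CG, and the 2 annotated Igfbp2 starts had 14 and 11. No relation between CG number and direction of change was tested over these 8 genes.

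In strong CKO lungs the ligand gene Igf1 and the binding protein genes Igfbp2, Igfbp5 and Igfbp7 rose against wild type and the receptor gene Igf1r fell. In weak CKO lungs Igf1, Igfbp5 and Igfbp7 rose and Igf1r fell. Igfbp3, Igfbp4 and Igfbp6 passed the test in neither comparison. Both comparisons used the same 3 wild type libraries, so they are not independent of each other.

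**Figure D1:**
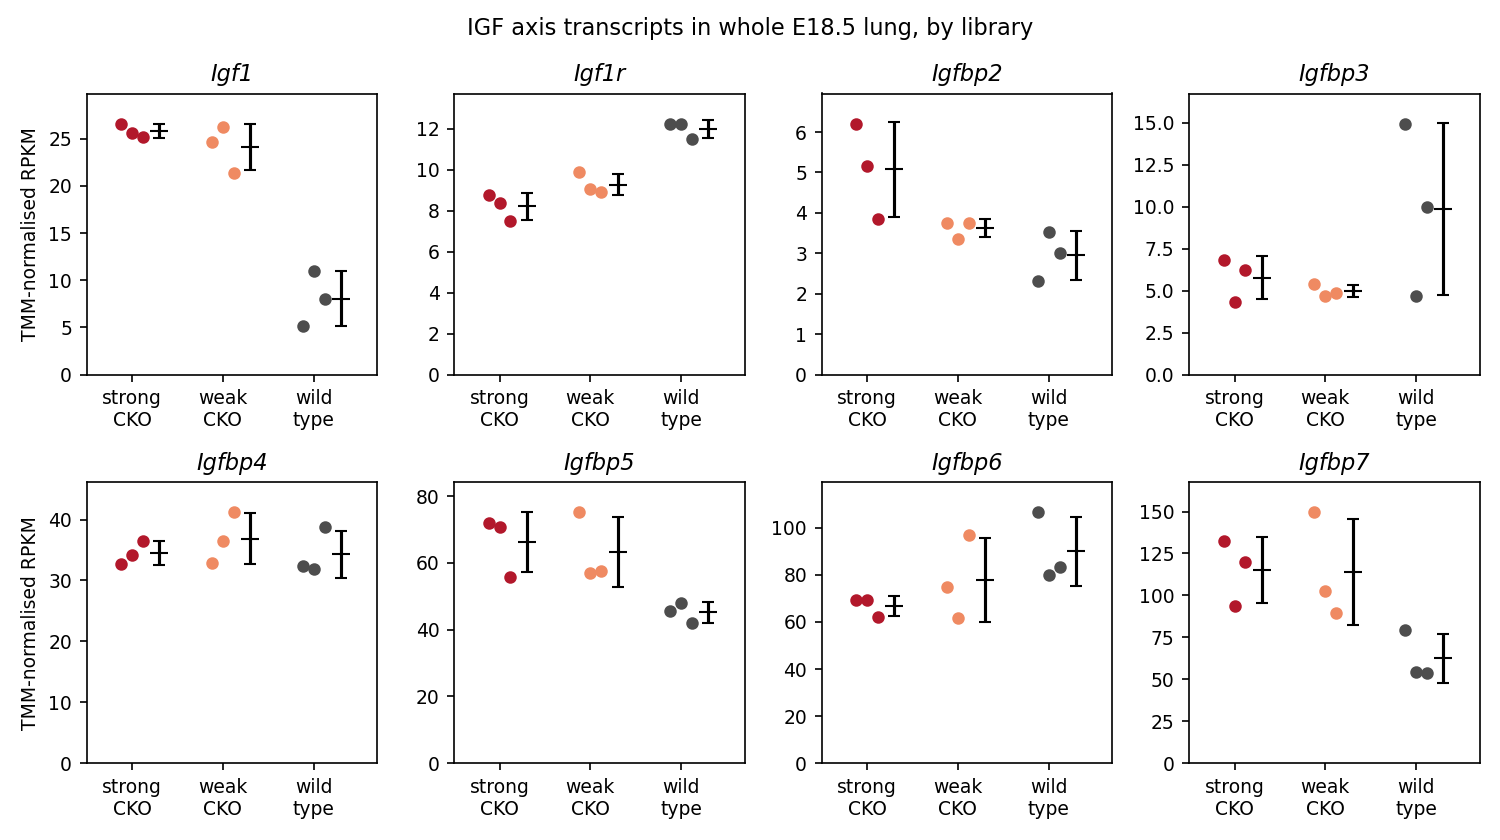
TMM-normalised RPKM (y axis, from 0) of the 8 genes in each library, with strong CKO, weak CKO and wild type from left to right. Each point is 1 library, in the order of the library numbers, and the black bar to the right of the points is the group mean with its SD (n = 3 each). For Igf1 all 6 CKO libraries lie at 21.4 RPKM or above and all wild type libraries at 11.0 or below.

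Igf1 encodes the ligand (ENSMUSG00000020053, GRCm38 chr10:87858265-87937042, plus strand). Its level was 26.6, 25.6 and 25.2 RPKM in strong CKO, 24.7, 26.3 and 21.4 RPKM in weak CKO, and 5.13, 11.0 and 8.01 RPKM in wild type. All 6 CKO libraries were above all wild type libraries, and the wild type libraries differed from each other by more, relative to their mean, than the CKO libraries did. Means were 25.8 ± 0.712 RPKM in strong CKO, 24.1 ± 2.47 RPKM in weak CKO and 8.03 ± 2.92 RPKM in wild type (SD, n = 3 each). Igf1 rose 3.21-fold in strong CKO (log2 change 1.68 ± 0.23, SE; 95% interval 1.16 to 2.21; adjusted p = 0.00128, edgeR quasi-likelihood test, Benjamini-Hochberg). It rose 3.00-fold in weak CKO (1.58 ± 0.23; interval 1.06 to 2.11; adjusted p = 0.00294). The antisense gene Igf1os overlaps Igf1, and the sources used here do not give the strand setting of the counting. Igf1os itself was counted at no more than 9 reads in any library. Without the strand setting, that count cannot show how many antisense reads were credited to Igf1.

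Igf1r encodes the receptor that IGF1 activates (ENSMUSG00000005533, chr7:67952827-68233668, plus strand). It was listed at 8.78, 8.38 and 7.50 RPKM in strong CKO, 9.87, 9.04 and 8.91 RPKM in weak CKO, and 12.3, 12.2 and 11.5 RPKM in wild type. The 3 groups did not overlap, with strong CKO lowest and wild type highest. The mean was 8.22 ± 0.659 RPKM in strong CKO, 9.27 ± 0.520 RPKM in weak CKO and 11.98 ± 0.424 RPKM in wild type (SD, n = 3 each). Igf1r fell by 0.54 ± 0.07 on the log2 scale in strong CKO (SE; interval −0.71 to −0.38; adjusted p = 0.000614). In weak CKO it fell by 0.37 ± 0.07 (interval −0.53 to −0.21; adjusted p = 0.00866). Ligand and receptor transcripts thus moved in opposite directions. The ratio of Igf1 to Igf1r RPKM on deposited gene length was 3.03, 3.05 and 3.36 in strong CKO, 2.498, 2.90 and 2.40 in weak CKO, and 0.418, 0.898 and 0.697 in wild type, so Igf1 stood above Igf1r in every CKO library and below it in every wild type library. With each exon base counted once in the gene length, the ratio was 4.002, 4.04 and 4.45 in strong CKO, 3.30, 3.84 and 3.18 in weak CKO, and 0.553, 1.19 and 0.922 in wild type. On that length WT_268_1 also had more Igf1 than Igf1r, and the CKO and wild type libraries did not overlap on either length.

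Igfbp5 encodes a binding protein that attaches to extracellular matrix and, like IGFBP3, can join the acid-labile subunit in a ternary complex with IGF (ENSMUSG00000026185, chr1:72857932-72874884, minus strand). It had 72.1, 70.7 and 55.9 RPKM in strong CKO, 75.2, 57.0 and 57.5 RPKM in weak CKO, and 45.7, 47.9 and 41.9 RPKM in wild type. All CKO libraries were above all wild type libraries. Igfbp5 rose 1.47-fold in strong CKO (log2 change 0.55 ± 0.13, SE; interval 0.26 to 0.84; adjusted p = 0.0114). It rose 1.40-fold in weak CKO (0.49 ± 0.13; interval 0.20 to 0.77; adjusted p = 0.0329). The weak CKO call was lost without MUT_W_265_2 (0.34) or MUT_W_268_3 (0.56), or without WT_265_1 (0.50), WT_268_1 (0.53) or WT_549_2 (0.43), and on the log2(RPKM + 1) and log2(RPKM + 0.1) scales (0.47 and 0.48).

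Igfbp7 encodes the weakly IGF-binding vessel wall protein (ENSMUSG00000036256, chr5:77349240-77408041, minus strand). Its level was 132, 93.7 and 119.9 RPKM in strong CKO, 149.7, 102 and 89.5 RPKM in weak CKO, and 79.5, 54.1 and 53.7 RPKM in wild type. The groups did not overlap between CKO and wild type, although the spread within each group was wide. Means were 115 ± 19.7 RPKM in strong CKO, 114 ± 31.7 RPKM in weak CKO and 62.5 ± 14.8 RPKM in wild type (SD, n = 3 each). Igfbp7 rose 1.85-fold in strong CKO (log2 change 0.88 ± 0.23, SE; interval 0.36 to 1.41; adjusted p = 0.0233). It rose 1.82-fold in weak CKO (0.87 ± 0.23; interval 0.34 to 1.39; adjusted p = 0.0399). The strong CKO call was lost without MUT_S_265_5 (0.78) or MUT_S_860_3 (0.86), and without WT_268_1 (0.79) or WT_549_2 (0.79). The weak CKO call was lost without MUT_W_265_2 (0.62) or MUT_W_268_3 (0.94), without WT_268_1 (0.77) or WT_549_2 (0.77), and with no filter on low counts (0.87). Polr2b and Gm34648 overlap Igfbp7 in antisense, so some of its reads could belong to them if strand was not used in counting.

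Igfbp2 encodes a binding protein abundant in fetal tissues (ENSMUSG00000039323, chr1:72824503-72852474, plus strand). It was listed at 6.21, 5.17 and 3.86 RPKM in strong CKO, 3.74, 3.36 and 3.75 RPKM in weak CKO, and 2.31, 3.52 and 3.02 RPKM in wild type. The strong CKO libraries were above all others, while weak CKO and wild type overlapped. Igfbp2 rose 1.72-fold in strong CKO (log2 change 0.78 ± 0.19, SE; interval 0.37 to 1.20; adjusted p = 0.0122), a call that was lost without MUT_S_265_5 (0.62). In weak CKO the log2 change was 0.29 ± 0.19 (interval −0.12 to 0.71; adjusted p = 0.344). Igfbp2 lies next to Igfbp5, on the opposite strand, with the 2 gene ends 5457 bases apart. Both genes of this neighbouring pair rose in strong CKO, and of the pair the test called Igfbp5 in weak CKO.

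Igfbp3 encodes the main IGF carrier of blood plasma (ENSMUSG00000020427, chr11:7206086-7213923, minus strand). Its level was 6.81, 4.34 and 6.21 RPKM in strong CKO, 5.41, 4.69 and 4.85 RPKM in weak CKO, and 14.9, 4.67 and 9.98 RPKM in wild type. WT_265_1 and WT_549_2 lay above all 6 CKO libraries and WT_268_1 lay among them. The log2 change was −0.77 ± 0.37 in strong CKO (SE; interval −1.63 to 0.09; adjusted p = 0.172) and −0.98 ± 0.37 in weak CKO (interval −1.85 to −0.12; adjusted p = 0.128). Both were called without WT_268_1, at −1.11 in strong CKO and −1.32 in weak CKO. Without WT_265_1 they were −0.34 in strong CKO and −0.55 in weak CKO. WT_265_1, WT_268_1 and WT_549_2 had summed levels of 10 endothelial markers of 522, 438 and 506 RPKM, in the same order as their Igfbp3 levels. The marker sums of alveolar and airway epithelium, macrophages, neutrophils, erythroid cells and hepatocytes had that order too. Those of mesenchyme, smooth muscle, pericytes, mesothelium and cartilage did not. In strong CKO the order of the endothelial sums was the reverse of that of Igfbp3, and in weak CKO it also differed. The part of cell types in the Igfbp3 values was not tested.

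Igfbp6, whose product binds IGF2 in preference to IGF1, had 69.1, 69.3 and 62.0 RPKM in strong CKO, 75.0, 61.6 and 96.8 RPKM in weak CKO, and 107, 80.0 and 83.2 RPKM in wild type (ENSMUSG00000023046, chr15:102144362-102149511, plus strand). All strong CKO libraries were below all wild type libraries, and weak CKO overlapped both groups. Its log2 change was −0.43 ± 0.16 in strong CKO (SE; interval −0.79 to −0.06; adjusted p = 0.0821), and it was −0.21 ± 0.16 in weak CKO (interval −0.57 to 0.15; adjusted p = 0.445). The strong CKO change was called without MUT_W_268_3 (−0.42) or MUT_W_549_3 (−0.43), with only the compared groups in the fit (−0.42) and by DESeq2 (−0.44). Igfbp4, whose product restrains IGF action until the protease PAPP-A cuts it, had 32.6, 34.2 and 36.5 RPKM in strong CKO, 32.9, 36.4 and 41.2 RPKM in weak CKO, and 32.4, 31.8 and 38.8 RPKM in wild type (ENSMUSG00000017493, chr11:99041244-99054392, plus strand). The 3 groups overlapped. Its log2 change was 0.01 ± 0.10 in strong CKO (SE; interval −0.22 to 0.23; adjusted p = 0.976), with the sign turning under DESeq2 and under its size factors in edgeR (−0.0021 in each), and 0.10 ± 0.10 in weak CKO (interval −0.12 to 0.32; adjusted p = 0.554).

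**Figure D2:**
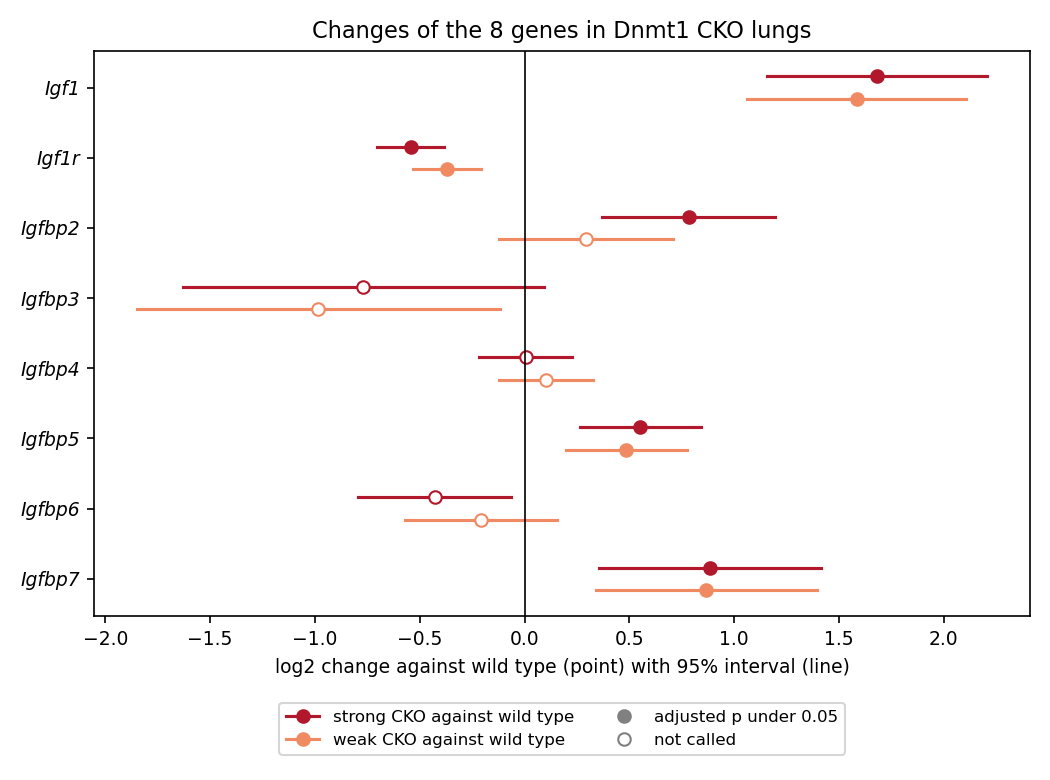
Log2 change against wild type (x axis, point) with its 95% interval (line) for the 8 genes, strong CKO above weak CKO within each gene. Filled points had an adjusted p under 0.05 and open points did not. Igf1 lies farthest to the right, at 1.68 in strong CKO and 1.58 in weak CKO, and Igf1r lies left of 0 in both.

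Set against all genes tested, 5 of the 8 members were called in strong CKO, where 25.6% of all genes were called (14.6% higher and 11% lower), with 4 members higher and 1 lower. In weak CKO 4 of the 8 were called, where 14.5% of all genes were called (9.09% higher and 5.38% lower), with 3 higher and 1 lower. Libraries of the compared groups did not overlap for 6 members in strong CKO, against 41.7% of all genes, and for 4 members in weak CKO, against 31.4%. The median log2 change of the 8 members was 0.28 in strong CKO and 0.20 in weak CKO, and that of all genes was −0.000975 in strong CKO and −0.0077 in weak CKO. The count of all genes called in strong CKO was 4969, and it was 3101 without MUT_S_265_5. The count in weak CKO was 2803, and it was 1432 without MUT_W_265_2, 1310 without MUT_W_268_3 and 1766 without WT_549_2.

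Between strong and weak CKO lungs none of the 8 members was called by edgeR or by DESeq2. Of all genes tested, edgeR called 1 (0.00516%) and DESeq2 called 10. Without adjustment, 1099 genes had p under 0.05. Igf1r was lower in every strong CKO library than in every weak CKO library, with a log2 difference of −0.17 ± 0.07 (SE; interval −0.34 to −0.01; adjusted p = 0.873). Igfbp2 was higher in every strong CKO library, with a difference of 0.49 ± 0.18 (interval 0.08 to 0.90; adjusted p = 0.873). For these 2 of 8 members, which also had an unadjusted p under 0.05, the libraries of the CKO groups did not overlap, against 13.4% of all genes. For Igf1 the difference was 0.10 ± 0.22 (interval −0.41 to 0.61), for Igfbp5 0.07 ± 0.13 (−0.22 to 0.36) and for Igfbp7 0.02 ± 0.23 (−0.50 to 0.54). Those intervals leave room for differences of either sign.

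Levels of different genes can be compared per length, but the deposited gene length summed the exons of all annotated transcripts, with overlapping stretches counted more than once. Order is therefore given on merged exon length, in which each base counts once. On that scale Igfbp7 was the most abundant member in each group, at 222 ± 37.9 RPKM in strong CKO, 219 ± 60.99 in weak CKO and 120.2 ± 28.5 in wild type (SD, n = 3 each). In strong CKO it was followed by Igfbp5 at 114 ± 15.4, Igfbp6 at 67.1 ± 4.18, Igfbp4 at 55.6 ± 3.14 and Igf1 at 41.0 ± 1.13 RPKM, and the libraries of these first 5 members did not overlap between neighbours. Igf1r at 9.88, Igfbp2 at 8.84 and Igfbp3 at 7.65 RPKM came last. Libraries of Igfbp2 overlapped those of Igf1r and those of Igfbp3, while Igf1r and Igfbp3 did not overlap each other. In weak CKO the order was Igfbp7, Igfbp5, Igfbp6, Igfbp4, Igf1, Igf1r, Igfbp3 and Igfbp2, with Igfbp6 and Igfbp4 overlapping, and likewise Igfbp3 and Igfbp2. In wild type it was Igfbp7, Igfbp6, Igfbp5, Igfbp4, Igf1r, Igfbp3, Igf1 and Igfbp2. There Igfbp7 overlapped Igfbp6, Igfbp6 overlapped Igfbp5, and Igfbp3, Igf1r and Igf1 all overlapped each other. By group means Igf1 thus stood 5th in both CKO groups and 7th in wild type. Its wild type libraries, at 8.15 to 17.4 RPKM, spanned those of Igf1r, so its place there was not settled. On deposited length the first place in wild type went to Igfbp6, at 90.0 RPKM against 62.5 RPKM for Igfbp7, and Igfbp7 remained first in both CKO groups.

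Summed over the 6 binding protein genes on merged exon length, Igfbp7 made up 46.6% ± 4.94 of the RPKM in strong CKO, 45.4% ± 6.54 in weak CKO and 32.97% ± 3.48 in wild type (SD, n = 3 each). Igfbp6 made up 14.2% ± 1.37 in strong CKO, 16.6% ± 4.51 in weak CKO and 24.9% ± 0.807 in wild type. For both genes the CKO libraries lay to one side of all wild type libraries. The share of Igfbp5 was 24.0% in strong CKO, 22.7% in weak CKO and 21.6% in wild type, with overlapping groups, although its level per library did not overlap between CKO and wild type. On deposited length the share of Igfbp7 was 39.1% in strong CKO, 37.6% in weak CKO and 25.3% in wild type, and that of Igfbp6 was 22.8% in strong CKO, 26.04% in weak CKO and 36.7% in wild type. These shares sum to a fixed total, so they are a description of the mix and carry no test.

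**Figure D3:**
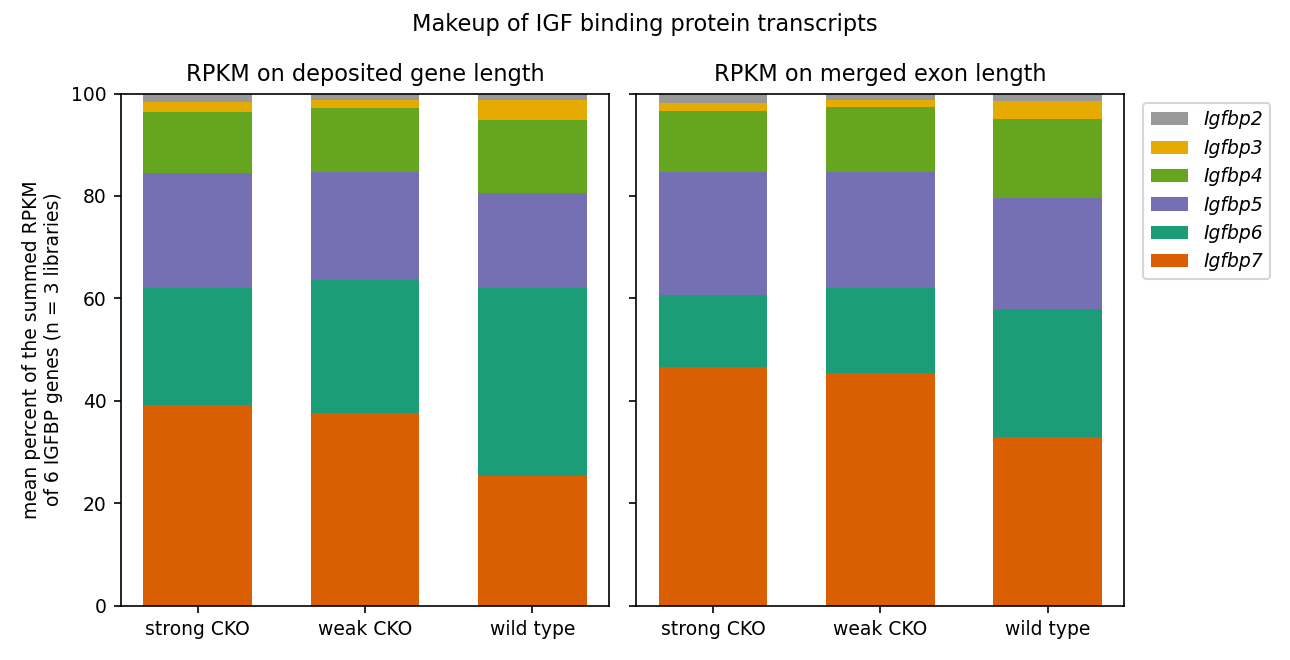
Mean percent of the summed RPKM of the 6 binding protein genes (y axis) in strong CKO, weak CKO and wild type, from left to right (n = 3 libraries each), with RPKM on deposited gene length in the left panel and on merged exon length in the right panel. The Igfbp7 block at the bottom is 46.6% in strong CKO, 45.4% in weak CKO and 32.97% in wild type in the right panel, and Igfbp6 is the block above it.

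Other ligands and receptors of the axis were measured as a list of 9 genes, of which 7 were tested. In strong CKO 2 rose and 2 fell, and in weak CKO 1 rose and 2 fell, with list medians of −0.12 in strong CKO and 0.04 in weak CKO. Of all genes tested, 14.6% were called higher and 11% lower in strong CKO, and 9.09% higher and 5.38% lower in weak CKO, which is the background for this list of 7. Igf2r, the receptor that takes up IGF2 for breakdown, fell by 1.09 ± 0.11 on the log2 scale in strong CKO (36.8 against 78.1 RPKM; adjusted p = 0.000131) and by 0.80 ± 0.11 in weak CKO (45.0 against 78.1 RPKM; adjusted p = 0.00128). The insulin receptor gene Insr fell by 0.47 ± 0.06 in strong CKO (adjusted p = 0.000592) and by 0.26 ± 0.06 in weak CKO (adjusted p = 0.0233). Thus Igf1r, Igf2r and Insr were all called lower in both CKO groups. The Igf2r calls held under all 17 alternatives in both groups, while the weak CKO call of Insr was lost without MUT_W_268_3 (−0.22), MUT_W_549_3 (−0.24) or WT_268_1 (−0.24). Lrp2, an endocytic receptor of epithelia, rose in strong CKO (0.62 ± 0.19; adjusted p = 0.0358) and in weak CKO (0.79 ± 0.19; adjusted p = 0.0219). Its strong CKO call was lost without MUT_S_268_4 (0.51), MUT_S_860_3 (0.57), WT_265_1 (0.58) or WT_268_1 (0.51), and its weak CKO call without MUT_W_268_3 (0.66), WT_265_1 (0.76) or WT_268_1 (0.68). The insulin receptor-related gene Insrr was called higher in strong CKO at a very low level (0.117 against 0.0460 RPKM), a call lost on leaving out any of 6 of the 9 libraries. Igf2, the second ligand gene, was listed at 0.507 RPKM in strong CKO, 0.561 in weak CKO and 0.732 in wild type and was not called. Gm49394 and Mir483 overlap it on the same strand, so its count is uncertain. The deposited length of Igf2 is 18030 bases, against 5723 bases of merged exons. Its RPKM listed here is therefore lower than it would be on merged exon length.

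Proteins related to the IGFBPs were represented by a list of 10 genes, of which 8 were tested, and 3 rose and 0 fell in each comparison, where 14.6% of all genes were called higher in strong CKO and 9.09% in weak CKO. Kazald1, a secreted protein with an IGFBP-type domain, rose in strong CKO (3.06 against 0.760 RPKM; log2 change 2.01 ± 0.26, SE; adjusted p = 0.000530) and in weak CKO (2.56 against 0.760 RPKM; 1.75 ± 0.26; adjusted p = 0.00190). Esm1, which encodes the endothelial proteoglycan endocan, rose by 2.36 ± 0.36 in strong CKO (adjusted p = 0.00128) and 1.98 ± 0.36 in weak CKO (adjusted p = 0.00573). Nov, also called Ccn3, a matrix protein with an IGFBP-like domain, rose by 1.67 ± 0.33 in strong CKO (adjusted p = 0.00718) and 1.38 ± 0.33 in weak CKO (adjusted p = 0.0267). The weak CKO call of Nov was lost without MUT_W_265_2 (1.45), MUT_W_268_3 (1.10), WT_268_1 (1.38) or WT_549_2 (1.17). On deposited length these 3 genes stayed at 10.7 RPKM or below in every library, under the levels of Igfbp5 and Igfbp7. Igfbp1 and Igfbpl1 had too few counts to be tested.

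Genes for proteases that cut IGFBPs, and for inhibitors of such proteases, made a list of 21, of which 19 were tested. In both comparisons 6 rose and 1 fell of the 19, where 25.6% of all genes were called in either direction in strong CKO and 14.5% in weak CKO. The list median was 0.44 in strong CKO and 0.15 in weak CKO. Serpine2, a serine protease inhibitor, rose by 0.79 ± 0.09 in strong CKO (32.4 against 18.8 RPKM; adjusted p = 0.000203) and 0.73 ± 0.09 in weak CKO (31.2 against 18.8 RPKM; adjusted p = 0.000475). Stc2, whose product inhibits PAPP-A, rose by 1.17 ± 0.21 in strong CKO (adjusted p = 0.00322) and 0.87 ± 0.21 in weak CKO (adjusted p = 0.0231). Among the proteases themselves, Pappa2, which cuts IGFBP3 and IGFBP5, rose by 0.98 ± 0.19 in strong CKO (adjusted p = 0.00420) and 0.72 ± 0.19 in weak CKO (adjusted p = 0.0292). The lysosomal protease gene Ctsd and the tissue plasminogen activator gene Plat also rose in both, by 0.41 and 0.77 in strong CKO and 0.37 and 0.44 in weak CKO. Adamts1, a metalloprotease of the matrix, fell by 0.92 ± 0.14 in strong CKO (adjusted p = 0.00144) and by 0.48 ± 0.14 in weak CKO (adjusted p = 0.0460). The genes that rose thus included proteases as well as inhibitors. In strong CKO the calls of these 6 named genes held under all 17 alternatives. In weak CKO this was so for Serpine2 alone among them, and 2 genes rose where 6 had when MUT_W_265_2, MUT_W_268_3 or WT_549_2 was left out, 3 without WT_268_1. Adamts1 in weak CKO was called under 5 of the 17 alternatives and Plat under 8. Mean levels of Stc2 were 0.813 RPKM in strong CKO, 0.659 in weak CKO and 0.362 in wild type. Those of Pappa2 were 1.63 RPKM in strong CKO, 1.36 in weak CKO and 0.829 in wild type, so both genes were low beside Serpine2.

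**Figure D4:**
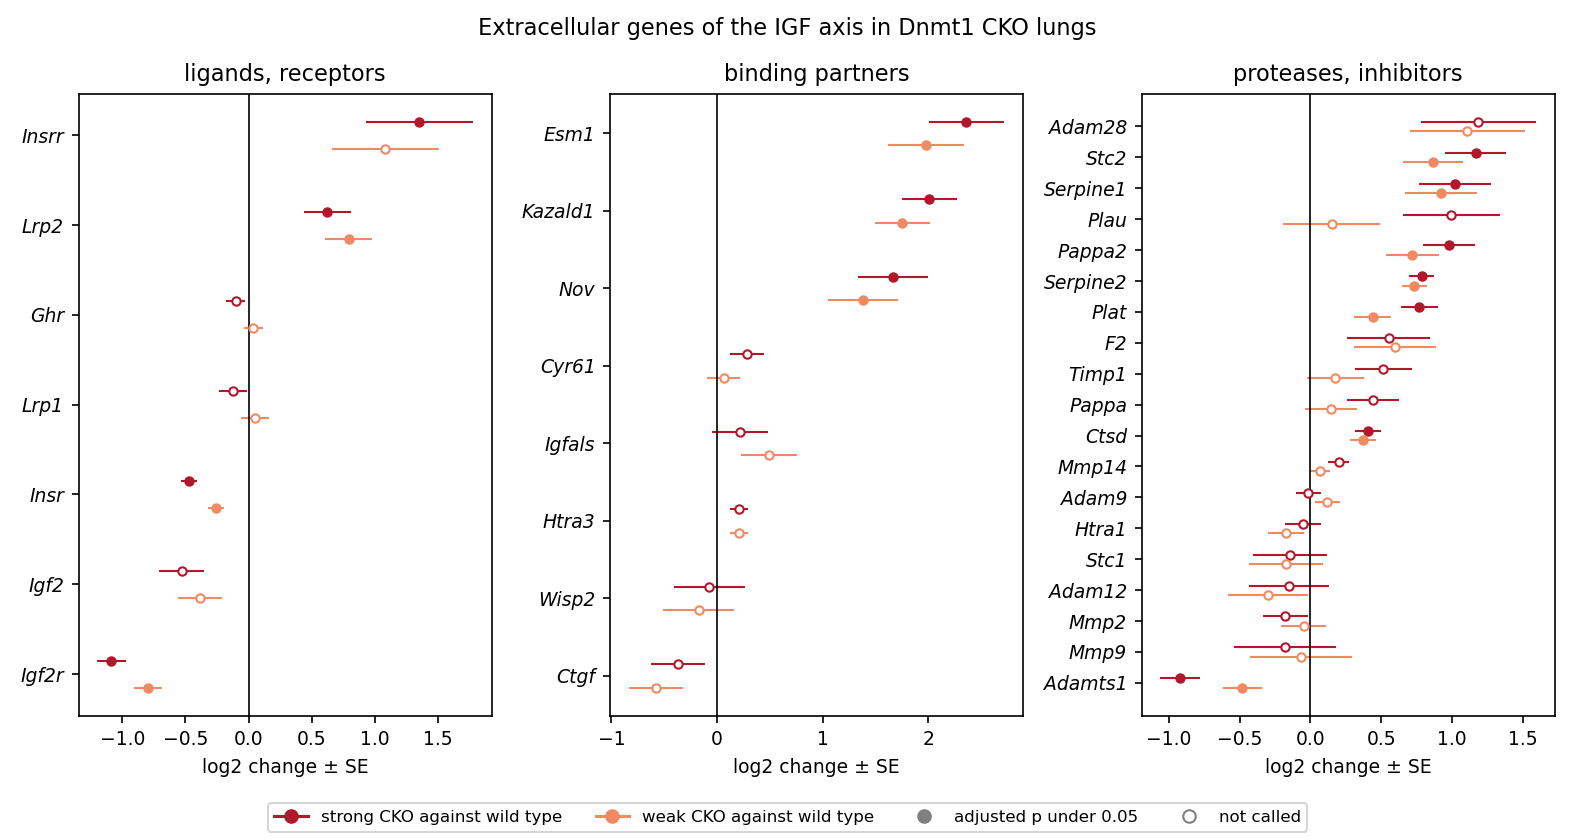
Log2 change against wild type with its SE (x axis) for tested genes of 3 extracellular lists, strong CKO above weak CKO within each gene, with filled points for an adjusted p under 0.05. Igf2r and Insr lie left of 0 in the left panel, and Esm1, Kazald1 and Nov lie at 1.38 or above in the middle panel. In the right panel Adamts1 is the only gene with filled points left of 0, in strong CKO and in weak CKO.

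Downstream of the receptor, 51 genes of intracellular signalling were tested. In strong CKO 4 rose and 14 fell, and in weak CKO 3 rose and 6 fell, with list medians of −0.12 in both. The background over all genes was 25.6% called in strong CKO (14.6% higher and 11% lower) and 14.5% in weak CKO (9.09% higher and 5.38% lower), so the weak CKO count of 9 of 51 lies near it. Pik3r1, which encodes a regulatory subunit of phosphoinositide 3-kinase, fell by 0.61 ± 0.06 in strong CKO (11.8 against 18.1 RPKM; adjusted p = 0.000132) and by 0.42 ± 0.06 in weak CKO (13.5 against 18.1 RPKM; adjusted p = 0.00191). Pik3r2, a second regulatory subunit, rose by 0.47 ± 0.06 in strong CKO (adjusted p = 0.000713) and 0.40 ± 0.06 in weak CKO (adjusted p = 0.00305). A further subunit gene, Pik3r3, rose by 0.41 ± 0.09 in strong CKO and 0.33 ± 0.09 in weak CKO, so the regulatory subunits did not move together. The translation repressor gene Eif4ebp1 fell by 0.35 ± 0.08 in strong CKO and by 0.31 ± 0.08 in weak CKO, and Stat5b, a transcription factor gene of growth hormone signalling, fell by 0.44 ± 0.08 in strong CKO and by 0.29 ± 0.08 in weak CKO. Socs3, a feedback inhibitor of cytokine signalling, rose in strong CKO (0.65 ± 0.12; adjusted p = 0.00360), and in weak CKO its change of 0.20 ± 0.12 was not called. Picked after their values were seen, Irs1, the adaptor that docks to the activated receptor, fell in strong CKO (−0.43 ± 0.14; adjusted p = 0.0429), and Grb10, an adaptor that dampens the receptor, fell in strong CKO (−0.84 ± 0.16; adjusted p = 0.00444) and weak CKO (−0.61 ± 0.16; adjusted p = 0.0319). Of 3 genes for Igf2 mRNA binding proteins, Igf2bp3 fell in both, by 0.33 ± 0.07 in strong CKO and by 0.30 ± 0.07 in weak CKO. The calls of Pik3r1 and Pik3r2 held under all 17 alternatives in both groups. The number of signalling genes that fell was 8 without MUT_S_860_3 and 9 without MUT_S_265_5 in strong CKO, and in weak CKO 1 without MUT_W_265_2 or MUT_W_268_3 and 2 without WT_265_1. The number that rose in weak CKO was 1 without MUT_W_268_3 or WT_268_1. Irs1 in strong CKO was called under 8 of the 17 alternatives. Weak CKO calls of Pik3r3, Eif4ebp1, Stat5b, Grb10 and Igf2bp3 were each lost on leaving out 3 to 5 single libraries.

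The libraries are whole lung, in which fewer cells of a type and less RNA per cell cannot be told apart. Markers of several cell types also changed. Of all genes tested, 14.6% were called higher and 11% lower in strong CKO, and 9.09% higher and 5.38% lower in weak CKO. These shares are the background for the marker counts below. Macrophages can express Igf1, and of 8 macrophage markers 6 rose and 0 fell in strong CKO, and 5 rose and 0 fell in weak CKO. Adgre1 rose by 0.95 in strong CKO and 1.08 in weak CKO, and C1qc by 1.26 in strong CKO and 1.11 in weak CKO. Summed levels of the 8 macrophage markers were 518 to 799 RPKM in strong CKO, 671 to 1013 in weak CKO and 507 to 1061 in wild type, most of it Lyz2, which alveolar type 2 cells share. Endothelial markers moved the other way from Igfbp7, a gene of vessel walls. Of 10 endothelial markers 0 rose and 9 fell in strong CKO and 0 rose and 5 fell in weak CKO, and the summed levels were 268.3 to 339.7 RPKM in strong CKO, 352 to 394 in weak CKO and 438 to 522 in wild type. Smooth muscle markers rose for 4 of 8 in strong CKO and 3 of 8 in weak CKO, with 1 lower in each, and their sum was 169.6 to 286 RPKM in strong CKO, 168 to 207 in weak CKO and 129 to 169 in wild type. The 12 mesenchyme markers had a median log2 change of −0.73 in strong CKO and −0.47 in weak CKO. Airway epithelium markers rose for 5 of the 7 tested in strong CKO and 4 in weak CKO, and their sums did not overlap wild type, at 2315 to 4474 RPKM in strong CKO, 2067 to 3487 in weak CKO and 995 to 1936 in wild type. Of 8 alveolar type 2 markers 7 fell in strong CKO and 2 in weak CKO, and 0 rose. Of 8 pericyte markers 3 rose and 4 fell in strong CKO and 3 rose and 1 fell in weak CKO, with sums of 53.2 to 70.6 RPKM in strong CKO, 69.5 to 79.7 in weak CKO and 81.05 to 87.7 in wild type. The part of these cell types in the changes of Igf1, Igfbp5 and Igfbp7 was not tested. Erythroid markers summed to 5535 to 10105 RPKM in strong CKO, 3110 to 3626 in weak CKO and 3233 to 6079 in wild type, and leaving haemoglobin genes out of the library sizes changed no call of a member.

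Among 10902 well-expressed genes, those whose log2 level across the 9 libraries was most like that of Igf1 were Ccdc15 and Olfml2b (Pearson r = 0.99 each). The log2 changes of Ccdc15 and Olfml2b were 0.80 and 0.64 in strong CKO and 0.76 and 0.56 in weak CKO, smaller than those of Igf1. The genes most like Igf1r were Maml3 and Mbnl2 (0.96 each), with changes of −0.60 and −0.34 in strong CKO and −0.39 and −0.24 in weak CKO. Chad and Faf1 were most like Igfbp7 (0.99 each), and Cry2 and Idh3a most like Igfbp5 (0.98 and 0.97). The most alike genes were Spata24 and Ogg1 for Igfbp2, Ap5s1 and Spns1 for Igfbp3, and Wasl and Prrg2 for Igfbp6, at 0.94 to 0.97. These values describe 9 libraries that share 3 groups and 1 normalisation, and they carry no test.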

How the data were processed

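Per the labels, total RNA of 9 whole mouse lungs at E18.5 was sequenced from TruSeq libraries as single reads of 75 nt. STAR, Trimmomatic 0.36, cutadapt 2.5, FastQC 0.11.8, GRCm38.p6 and edgeR 3.28.1 are named, per the submitters' processing notes. The sources used here name no counting tool or strand setting. The deposited table held whole-number counts per gene, RPKM values made by the authors and a deposited gene length in bases. Column totals of 25607595 to 33156732 set the counting precision, and the lowest member count was 213. Counts were tested with edgeR 4.0.16 in R 4.3.3: filterByExpr by group (19374 of 27207 genes), TMM factors, 1 mean per group, and robust quasi-likelihood F tests (two-sided) on the 9 libraries fitted together, with Benjamini-Hochberg adjustment over all tested genes at 0.05. Standard errors and 95% intervals were derived from unshrunk changes and the F statistics. An exact permutation test of 3 against 3 libraries cannot give p below 0.1 and was not used. RPKM in the text was recomputed from counts with TMM library sizes on the deposited length, or, chosen after seeing the data, on merged GENCODE exon length. Alternatives used DESeq2 1.42.0, limma 3.58.1 on log2 of the deposited RPKM with pseudocounts of 1 and 0.1, RLE size factors, no haemoglobin genes, no filter, only the compared groups, the library number as a block, and each library left out. The scripts were tested on simulated data. Members, lists and alternatives were chosen with earlier results of these data known. Named genes were all members, up to 4 called genes with the smallest adjusted p of each pathway list and the 2 genes most correlated with each member. Those for Igfbp4 are not reported here.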

Additional observations from a re-analysis of the deposited data

How the results depend on the processing

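Igf1 and Igf1r in both CKO groups and Igfbp5 in strong CKO stayed called in the same direction under all 17 alternatives. With each library left out in turn, Igfbp3 ranged from −1.32 to −0.55 in weak CKO and from −1.11 to −0.34 in strong CKO, Igfbp5 from 0.34 to 0.56 in weak CKO, and Igfbp7 from 0.62 to 1.08 in weak CKO and 0.78 to 1.10 in strong CKO. Likewise Igfbp2 ranged from 0.62 to 0.95, Igfbp6 from −0.51 to −0.29 and Igfbp4 from −0.046 to 0.10 in strong CKO, and Igfbp7 from −0.13 to 0.27 between strong and weak CKO. Igfbp5 in weak CKO was no longer called on log2(RPKM + 1) (0.47) or log2(RPKM + 0.1) (0.48), nor Igfbp7 in weak CKO with no filter (0.87). Igfbp6 in strong CKO was called by DESeq2 (−0.44) and with only the compared groups (−0.42). Igfbp4 in strong CKO turned to −0.0021 with DESeq2 and with RLE factors. Fewer samples left in a fit lower its power; otherwise the cause was not tested. Counts of called genes with each library left out ran from 1310 to 2828 in weak CKO, 3101 to 4983 in strong CKO and 1 to 4 between strong and weak CKO. Between strong and weak CKO, DESeq2 called 10 genes, a fit of only these groups 4, log2(RPKM + 0.1) 2 and the block 3, against 1. The labels do not say what the library numbers mean, so they were not taken as pairs, and a block on them was fitted as an alternative. Deviations of same-numbered libraries correlated at 0.30, −0.09 and 0.35 between weak CKO and wild type (different numbers −0.38 to 0.07). Between strong CKO and wild type they correlated at 0.11 and 0.08 (different numbers −0.13 to 0.07). Between strong and weak CKO the values were 0.17 and −0.00055 (different numbers −0.195 to 0.19). Each deviation was taken from the mean of its own group, so the deviations within a group cancel out. Correlations for same and different numbers are therefore tied to each other, and the latter are no independent reference. A shared source was thus not settled. With the replicate block, 3926 genes were called in weak CKO and 4450 in strong CKO, and Igfbp7 turned to −0.12 between strong and weak CKO; it changed no call of a member, and Lrp2 lost its call in both CKO groups. On merged exon length, 11 of 18 binding protein shares moved by more than 1 SD. Having 3 libraries a group limits the small differences that can be called.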
